A study of Mus musculus with 8 samples.

Results

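The genes described here encode the constitutive proteasome, the complex that degrades ubiquitin-tagged proteins, with its activators and assembly factors. Members were the rows of the gene table whose symbol begins with Psm, a letter from a to g and a digit, without Psmb8, Psmb9, Psmb10 and Psmd13. This rule took 44 of 11354 genes. All 44 passed the filter on low counts, as did every gene of the table. One of them, Psmc3ip, carries such a symbol because its product binds an ATPase subunit, but it is known as a cofactor of meiotic recombination and not as a proteasome subunit, so it is kept apart below.

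The libraries came from CD4+ T cells of Black6 background that had been transferred into RAG-/- mice, hosts without T or B cells of their own. In 4 libraries the transferred cells were labelled wild type (WT 1, WT 2, WT 4 and WT 5, after the host number) and in 4 they were labelled Nlrp6-/- (KO 1, KO 2, KO 4 and KO 5). All groups share the RAG-deficient host. The transfer used as many Nlrp6-/- as wild-type cells, and the host numbers recur under both labels without a statement that a host received both. The labels name the host spleen as the source in 1 field and the colonic lamina propria in another, and give no age, sex, targeted allele or time after transfer. Nlrp6 went against the labels, with 3 to 8 counts in the WT-labelled libraries and 329 to 648 in the KO-labelled ones, so every direction below is that of a label and not of a genotype.

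The libraries held 35198192 to 40310721 counts. Of 14 T cell markers 11 were in the table, and their summed level was 7741 to 8900 CPM (counts scaled to a common library total, per 1e6) in WT-labelled libraries and 7294 to 7870 CPM in KO-labelled libraries. Cd4, the marker that defines these cells, was at 1446 ± 112 and 1222 ± 174 CPM (SD, n = 4 each). Of the T cell markers, 2 were called lower in KO-labelled libraries, the signalling genes Cd247 (-0.40 on the log2 scale) and Zap70 (-0.27). None of the 4 B cell markers was in the table. The summed level of 12 myeloid markers was 48.8 to 85.2 CPM in WT-labelled libraries and 284 to 898 CPM in KO-labelled libraries, and 11 of the 12 were called higher. Of 5 dendritic cell and MHC class II markers measured, 4 were called higher (59.6 to 105 against 440 to 1277 CPM summed). KO 4 and KO 5 had the highest mean log2 CPM of the 12 myeloid markers (5.78 and 5.35, against 4.95 in KO 2, 4.15 in KO 1 and 1.44 to 2.29 in WT-labelled libraries). They also share a code in the sample descriptions (8, against 7 in the other libraries). In such bulk samples, fewer cells of a type and less RNA per cell cannot be told apart.

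The proteasome is a barrel with caps. The core particle is built of stacked rings of alpha subunits, which form the gate, and of beta subunits, some of which carry the cutting sites. The regulatory particle binds to the end of the barrel, recognises ubiquitin, removes it, and unfolds the protein with a ring of ATPases. Other caps, the activators PA28 and PA200, open the gate without ubiquitin. Lymphocytes also make the immunoproteasome, in which Psmb8, Psmb9 and Psmb10 take the places of Psmb5, Psmb6 and Psmb7 and change the peptides that are cut. When proteasomes are inhibited, the transcription factor encoded by Nfe2l1 is known to raise the expression of subunit genes together.

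The following stretches of DNA just upstream of the start sites of 2 catalytic subunit genes are shown because each holds a match to a known motif. They were taken from RefSeq promoters (GRCm38.p6), in which 37 of the 44 members had an entry. Capitals mark a match to TGACNNNGC, the core of the antioxidant response element to which the factors of Nfe2l1 and Nfe2l2 are known to bind. The first lies on the minus strand at chr14:54617996-54618095, and the second on the plus strand at chr11:70525327-70525356, inside the annotated span of its gene because another transcript starts further upstream.
Psmb5: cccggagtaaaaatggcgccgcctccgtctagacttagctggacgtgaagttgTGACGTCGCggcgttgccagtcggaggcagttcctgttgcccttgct
Psmb6: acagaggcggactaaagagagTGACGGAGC
The match ran from base -47 to base -39 before the start in Psmb5 and from -9 to -1 in Psmb6. Searched on both strands over the 300 bases of each promoter, these letters were found in 6 of the 37 members (16.2%), namely Psmb5, Psmb6, Psmc6, Psmd9, Psmd12 and Psme4. They were found in 14% of all 27025 genes with a RefSeq promoter. This background was not limited to the genes of the deposited table, while all members are in that table. CCAAT was found in 13 members (35.1%, against 41.1% of the 27025 genes). GAAA, any 2 bases and GAAA again, the core of the interferon-stimulated response element, was found in 5 members (Psmb3, Psmd4, Psmd9, Psme1 and Psmg4, 13.5%, against 3.99% of the 27025 genes). Matches of one motif that overlapped those of another were kept. A match describes the sequence and not a site in use. Whether any of these motifs bears on the levels of the members was not tested.

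A pair of activator genes is shown for another reason, namely how alike they are. Psme2 encodes the beta chain of PA28, and Psme2b is an intronless copy of it. Their coding sequences (GENCODE M21, GRCm38) are 720 bases long and 99.3% identical, with 5 substitutions, all at the last base of a codon. Counted from the first base of the start codon, with the base of Psme2 first, these were C312T, A369G, C489T, C519T and C543T. The encoded proteins of 239 residues did not differ. Capitals in the stretch from coding base 424 to 543 mark 3 of these differences.
Psme2: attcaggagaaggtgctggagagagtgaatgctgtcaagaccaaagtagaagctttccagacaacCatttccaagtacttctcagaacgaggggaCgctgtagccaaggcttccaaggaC
Psme2b: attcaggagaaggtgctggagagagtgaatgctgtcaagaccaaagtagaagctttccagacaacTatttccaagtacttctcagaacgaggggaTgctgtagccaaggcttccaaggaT
Of the 640 stretches of 81 bases, the read length, in the coding sequence of either gene, 367 (57.3%) occur without a mismatch in the other. The sources used here do not give how reads matching both were counted, and the split between Psme2 and Psme2b is uncertain.

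The comparison of the labels asks how loss of Nlrp6, which encodes an innate immune sensor, bears on the RNA of the transferred cells. None of the 44 genes passed the test. With edgeR's quasi-likelihood test at an adjusted p below 0.05, 0 of the 44 members were called higher and 0 lower in KO-labelled libraries, while 6.20% of all genes were called higher and 3.84% lower. At an unadjusted p below 0.05 edgeR gave 2 members, Psme3 higher and Psmd5 lower, against 23.5% of all genes. DESeq2, which called 13.9% of all genes, and limma-voom, which called 12.2%, also called 0 members. So did edgeR with the code as a term (6.56% of all genes called), with the myeloid marker level as a covariate (0.0617%) and with the host number as a block (8.98%). Log2 fold changes of the KO-labelled over the WT-labelled libraries lay between -0.14 and 0.20 over the members, with a median of -0.01 (-0.00 over all genes). With the myeloid level as a covariate, which does not overlap between the labels, they lay between -0.39 and 0.71, and the SE of Psme3, for example, was 0.136 in place of 0.035. The median size of the change without its sign was 0.0267 for members and 0.0894 for all genes.

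The intervals of the fit on the label alone show how large a difference these libraries leave room for. For 40 of the 44 members (90.9%) the whole 95% interval of the log2 fold change lay inside a 1.25-fold change in either direction, a bound chosen after the values were seen, and for all 44 it lay inside a 1.5-fold change. Over all genes the shares were 58.1% and 80.3%. The 4 members with an interval reaching past 1.25-fold were Psmg1, Psmg3, Psmg4 and Psmc3ip, which had the lowest levels of all members, 3.64 to 8.33 CPM in WT-labelled libraries. All 30 genes of the core and regulatory particles were inside it. These genes are well expressed, with a median of 79.6 CPM for members against 32.3 CPM for all genes, and the spread between libraries was small. The median coefficient of variation of members was 3.96% in WT-labelled libraries and 5.54% in KO-labelled libraries (6.75% and 7.48% for all genes).

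**Figure D1:**
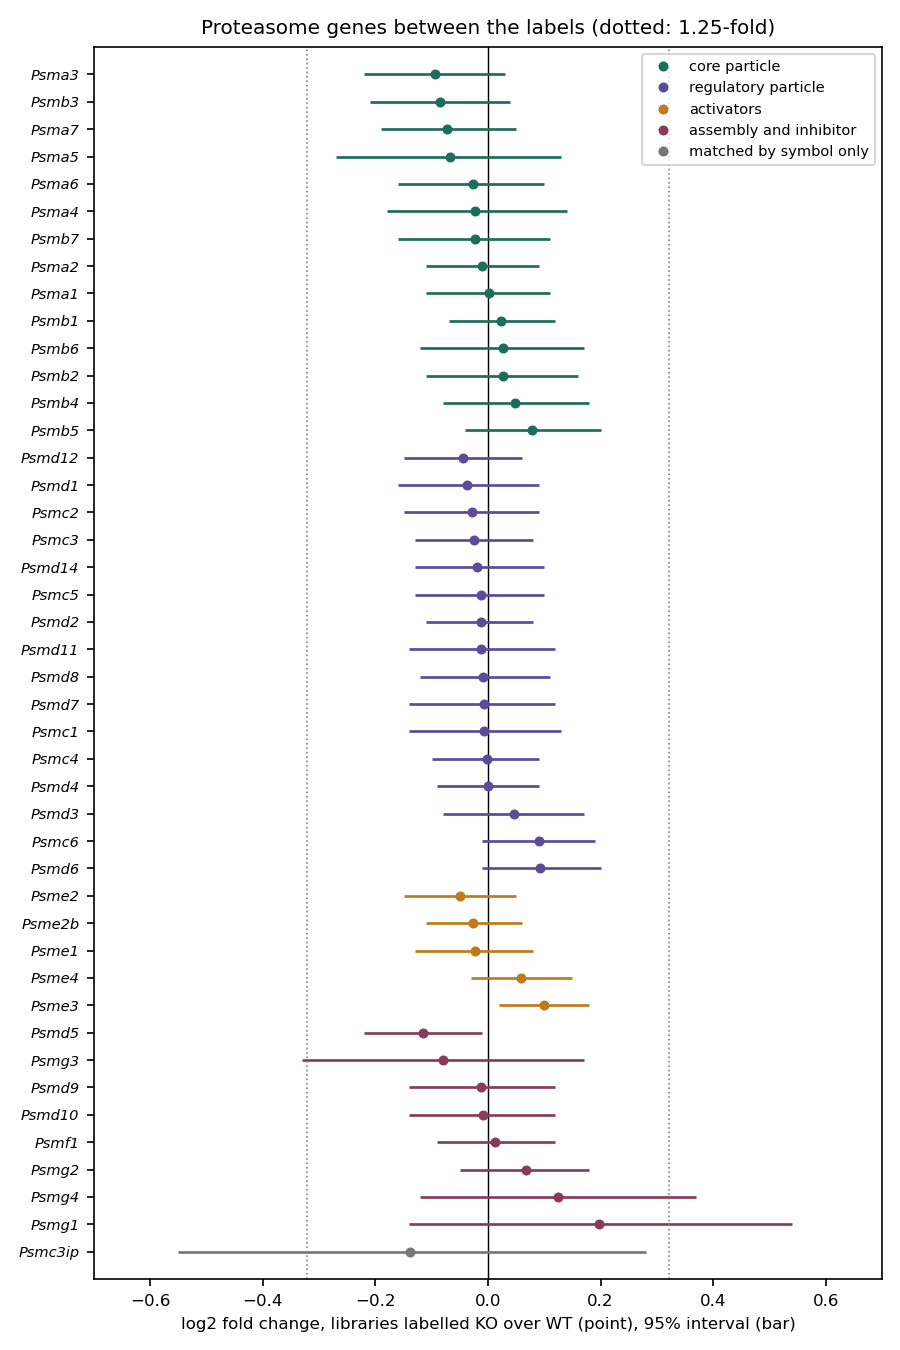
Log2 fold change of each of the 44 genes (KO-labelled over WT-labelled libraries, horizontal axis) with its 95% interval from edgeR, sorted within the core particle, regulatory particle, activators, assembly and inhibitor genes, and Psmc3ip. Dotted lines mark 1.25-fold in either direction, and only the intervals of Psmg1, Psmg3, Psmg4 and Psmc3ip cross one.

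The core particle was represented by 14 genes, 7 of the alpha ring and 7 of the beta ring. Their summed level was 1212 ± 31.2 CPM in WT-labelled libraries and 1205 ± 74.2 CPM in KO-labelled libraries (SD, n = 4 each), a ratio of 0.994. Psma3, an alpha ring subunit, had the lowest log2 fold change, and Psmb5 the highest. Psma3 was at 34.5, 34.7, 35.5 and 35.2 CPM in WT 1, WT 2, WT 4 and WT 5 and at 30.5, 32.7, 32.4 and 35.5 CPM in KO 1, KO 2, KO 4 and KO 5. KO 5 reached the highest of the WT-labelled libraries while the other KO-labelled libraries were below all of them (log2 fold change -0.09 ± 0.05 SE, edgeR adjusted p = 0.350). Of the alpha ring genes 6 had a negative value and 1 a positive one, with a median of -0.03, and of the beta ring genes 2 had a negative value and 5 a positive one, with a median of 0.03, none of them called.

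The 3 catalytic subunits of the constitutive barrel were at like levels under both labels. Psmb5 (chr14:54614120-54617995, as all positions here in GRCm38), the chymotrypsin-like subunit, was at 37.9, 36.7, 36.5 and 34.4 CPM in the WT-labelled libraries (hosts 1, 2, 4 and 5) and at 36.9, 40.1, 36.4 and 40 CPM in the KO-labelled ones. The ranges overlapped, and its log2 fold change was 0.08 ± 0.05 (95% interval -0.04 to 0.20, edgeR adjusted p = 0.444). Psmb6 (chr11:70525324-70527858), the caspase-like subunit, was at 70.3, 65.1, 70.5 and 66.6 CPM and at 68.1, 71.7, 62.0 and 75.7 CPM in the same order, so that KO-labelled libraries were both lowest and highest (0.03 ± 0.06, interval -0.12 to 0.17). Psmb7 (chr2:38588046-38643952), the trypsin-like subunit, was at 84.4, 79.5, 87.6 and 82.5 CPM and at 77.4, 85.1, 76.1 and 90.1 CPM, again lowest in KO 4 and highest in KO 5 (-0.02 ± 0.06, interval -0.16 to 0.11). Of the exon bases of Psmb7, 11.8% also belong to Nek6 on the opposite strand, and the sources used here do not give whether counting used the strand. Of those of Psmb5, 12.1% are shared with Mir686 on the same strand.

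The immunoproteasome counterparts are set beside them per length. Psmb8 was 7.02 ± 0.311 times Psmb5 in WT-labelled libraries and 6.62 ± 0.260 times in KO-labelled libraries in CPM per kilobase of deposited gene length (SD, n = 4 each). Psmb10 was 3.56 ± 0.230 and 3.64 ± 0.195 times Psmb7. The size of a ratio depends on the lengths used, while the comparison of the labels within a pair does not. Psmb7 was at 25.6 CPM per kilobase with its deposited length of 3230 bases. With its GENCODE principal transcript of 1160 bases it was at 71.4. Psmb9 was 2.83, 3.25, 3.19 and 2.84 times Psmb6 in the WT-labelled libraries and 2.51, 2.52, 2.69 and 2.43 times in the KO-labelled ones. All 4 ratios of Psmb9 to Psmb6 in KO-labelled libraries lay below all 4 in WT-labelled libraries. A two-sided exact permutation test gave p = 0.0286, the smallest that 70 assignments allow, and 0.0857 adjusted over the 3 pairs, while the other pairs gave p = 0.114 and 0.60. Psmb9 itself fell by 0.23 on the log2 scale, from 160 ± 12.0 to 137 ± 6.16 CPM (SE 0.06, edgeR adjusted p = 0.0364). Leaving out KO 5 or WT 5 kept that call, leaving out any other single library ended it (edgeR adjusted p = 0.0612 to 0.0982), and so did the host number as a block (0.0892) and the code as a term (0.144). The log2 fold change stayed near its size in these fits, at -0.193 to -0.270 where any single library was left out, -0.229 with the block and -0.230 with the code. With the myeloid level as a covariate Psmb9 was at -0.082 ± 0.214 (adjusted p = 0.999).

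**Figure D2:**
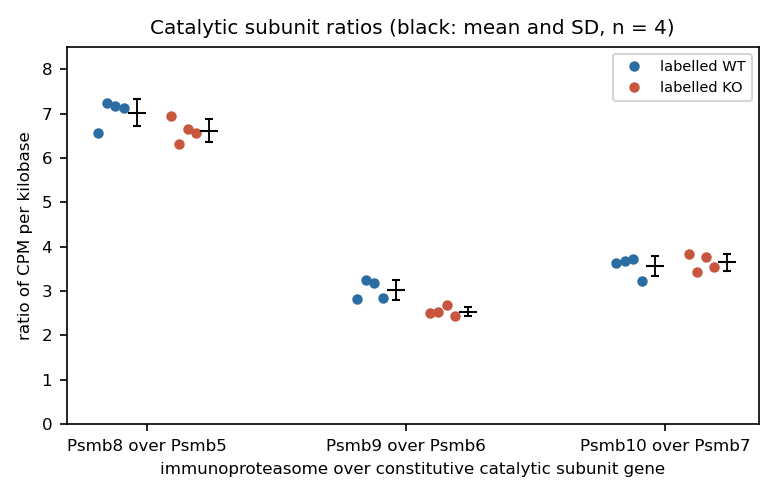
Ratio of each immunoproteasome subunit gene to the constitutive gene whose place its product takes, in CPM per kilobase of deposited gene length (vertical axis), with 1 point per library and the mean and SD of 4 libraries in black. The Psmb9 ratios of the KO-labelled libraries (2.43 to 2.69) lie below the WT-labelled ones (2.83 to 3.25), and the other pairs overlap.

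The regulatory particle was represented by 16 genes, 6 of the ATPase ring and 10 of the other base and lid subunits. Their summed level was 1531 ± 34.7 CPM in WT-labelled libraries and 1528 ± 65.7 CPM in KO-labelled libraries, a ratio of 0.998. All 6 ATPase genes, Psmc1 to Psmc6, had log2 fold changes between -0.03 and 0.09. The highest of them was Psmc6, at 75.1, 75.5, 82.0 and 77.6 CPM in WT-labelled libraries and 82.0, 84.7, 79.5 and 83.9 CPM in KO-labelled libraries (0.09 ± 0.04, edgeR adjusted p = 0.249). Among the other subunits, the ubiquitin receptor gene Psmd4 was at 136 ± 3.98 and 136 ± 4.64 CPM, and Psmd14, which encodes the deubiquitinase of the lid, at 90.6 ± 3.56 and 89.4 ± 5.37 CPM. Psmd2, the scaffold subunit to which other factors dock, was at 197 ± 7.81 and 195 ± 6.32 CPM.

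Lid subunits gave the extremes of the regulatory particle. Psmd6 (chr14:14112185-14120945) was at 34.2, 36.6, 34.9 and 33.1 CPM in the WT-labelled libraries and at 36.7, 36.7, 38.0 and 36.6 CPM in the KO-labelled ones. The labels did not overlap, though WT 2 and KO 5 differed by less than the rounding of these values (0.09 ± 0.05, interval -0.01 to 0.20, edgeR adjusted p = 0.284). Psmd12 had the lowest value, at 68.0, 64.1, 70.0 and 70.1 CPM and at 64.3, 64.9, 65.3 and 69.4 CPM (-0.04 ± 0.05, adjusted p = 0.637), with overlapping ranges. In all, 3 of the 44 members did not overlap between the labels, Psmd6 and Psme3 higher and Psmd5 lower in KO-labelled libraries, against 16.0% of all genes (8.60% higher and 7.37% lower).

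The activators were represented by 5 genes, with a summed level of 723 ± 22.8 CPM in WT-labelled libraries and 727 ± 12.9 CPM in KO-labelled libraries. Psme1 (chr14:55578494-55581527), the alpha chain of the interferon-inducible PA28, was at 227, 223, 243 and 215 CPM in the WT-labelled libraries and at 225, 217, 217 and 233 CPM in the KO-labelled ones (-0.02 ± 0.05). It was the most abundant member by CPM. Psme2 (chr14:55587440-55591101), its partner chain, was at 75.0, 73.0, 75.9 and 70.7 CPM and at 68.1, 71.8, 69.3 and 75.4 CPM (-0.05 ± 0.05). The copy Psme2b (chr11:48945345-48946410) had 180, 194, 194 and 182 CPM and 183, 187, 180 and 186 CPM (-0.03 ± 0.04). Per kilobase of deposited gene length it was 2.35 ± 0.0980 times Psme2 in WT-labelled libraries and 2.39 ± 0.0864 times in KO-labelled libraries. The deposited counts thus gave more to the copy than to Psme2 in all 8 libraries, with the uncertainty over shared reads described above.

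Psme3 (chr11:101316213-101323537) encodes the gamma form of PA28, a nuclear cap. It was at 134, 130, 132 and 129 CPM in WT 1, WT 2, WT 4 and WT 5 and at 139, 145, 140 and 138 CPM in KO 1, KO 2, KO 4 and KO 5. Every KO-labelled library was above every WT-labelled library, yet the difference was small and did not pass the test (0.10 ± 0.04, interval 0.02 to 0.18, edgeR adjusted p = 0.118). It had the smallest adjusted p of all members. Over the alternatives its adjusted p ranged from 0.0595 with DESeq2 to 0.999 with the myeloid level as a covariate. Psme4 (chr11:30771775-30881150), which encodes PA200, was at 101, 104, 108 and 102 CPM and at 105, 113, 106 and 109 CPM, with overlapping ranges (0.06 ± 0.04, adjusted p = 0.443).

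Assembly and inhibitor genes were the least abundant, at 172 ± 2.23 and 172 ± 5.14 CPM summed over 8 genes. Psmd5 (chr2:34852087-34870965), a chaperone of the ATPase ring, was at 37.6, 35.8, 38.1 and 36.3 CPM in the WT-labelled libraries and at 35.1, 34.0, 32.3 and 35 CPM in the KO-labelled ones. The labels did not overlap, and the difference did not pass the test (-0.12 ± 0.05, interval -0.22 to -0.01, edgeR adjusted p = 0.185). The other ATPase chaperones, Psmd9 at 18.7 ± 0.655 and 18.5 ± 0.907 CPM and Psmd10 at 22.6 ± 1.39 and 22.5 ± 0.376 CPM, each had a log2 fold change of -0.01. Psmf1, an inhibitor of the core particle in the test tube, was at 47.2 ± 1.27 and 47.6 ± 1.82 CPM.

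The chaperones of the alpha ring are encoded by Psmg1 to Psmg4. Psmg1 (chr16:95979933-95990960) had the highest log2 fold change of all members, at 6.98, 5.32, 6.05 and 7.52 CPM in WT-labelled libraries and 7.99, 6.19, 6.54 and 8.92 CPM in KO-labelled libraries. The ranges overlapped (0.20 ± 0.15, interval -0.14 to 0.54, edgeR adjusted p = 0.501), and the value was 0.096 without KO 5, 0.109 without WT 2 and 0.381 without KO 2 and KO 4. With the host number as a block it was 0.194 with an SE of 0.085 (adjusted p = 0.235). Psmg4 gave 0.12 ± 0.11, Psmg2 0.07 ± 0.05 and Psmg3 -0.08 ± 0.11. Psmc3ip, the gene that is no subunit, held 144, 134, 157 and 140 counts in WT-labelled libraries and 136, 144, 73 and 154 in KO-labelled libraries. KO 4 was thus the low library, and the log2 fold change of -0.14 ± 0.19 became 0.017 without it. Of its exon bases 21.2% are shared with Mlx on the opposite strand.

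Levels differed far more between subunits than between labels. Subunits of the core particle enter a constitutive barrel in equal numbers. In the immunoproteasome, Psmb8, Psmb9 and Psmb10 take the places of Psmb5, Psmb6 and Psmb7. Transcripts of the core particle genes, in CPM per kilobase of deposited gene length, ranged 6.71-fold, from 157 for Psmb1 to 23.4 for Psma3. In falling order came Psmb1, Psma2 (143), Psmb4 (116), Psma6 (105), Psma4 (72.3), Psmb6 (66.4), Psma7 (63.8), Psma1 (62.8), Psmb5 (42.9), Psmb2 (35.9), Psmb3 (34.0), Psmb7 (25.6), Psma5 (24.0) and Psma3. Library ranges of neighbours in this order overlapped except between Psma2 and Psmb4, Psma6 and Psma4, Psma1 and Psmb5, Psmb5 and Psmb2, and Psmb3 and Psmb7. Deposited lengths can hold exons that these cells do not use. With the length of the GENCODE principal transcript, an alternative added after the data were seen, the range was 9.33-fold, from 111 for Psma7 to 11.9 for Psma3. The longest of the best-ranked principal transcripts was taken, which for Psma3 has 2846 bases against 1444 deposited. Psmb7 was then at 71.4 and Psma2 at 46.6, so the order depends on the length. Psma3 was lowest with both lengths while the highest gene was not the same.

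The regulatory particle spanned 6.62-fold per kilobase, from 78.1 for the ATPase gene Psmc3 to 11.8 for Psmd11, a lid subunit. Of the exon bases of Psmc3, 8.25% also belong to Slc39a13 on the opposite strand. Psmd11 stood apart from its neighbour Psmd6 (27.7), with 10.9 to 12.4 against 25.5 to 29.3 CPM per kilobase over the 8 libraries. It was also lowest with principal transcript lengths, at 18.9, and Psmd4 was then highest, at 102. The median was 63.3 CPM per kilobase for the core particle and 49.3 for the regulatory particle with deposited lengths.

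**Figure D3:**
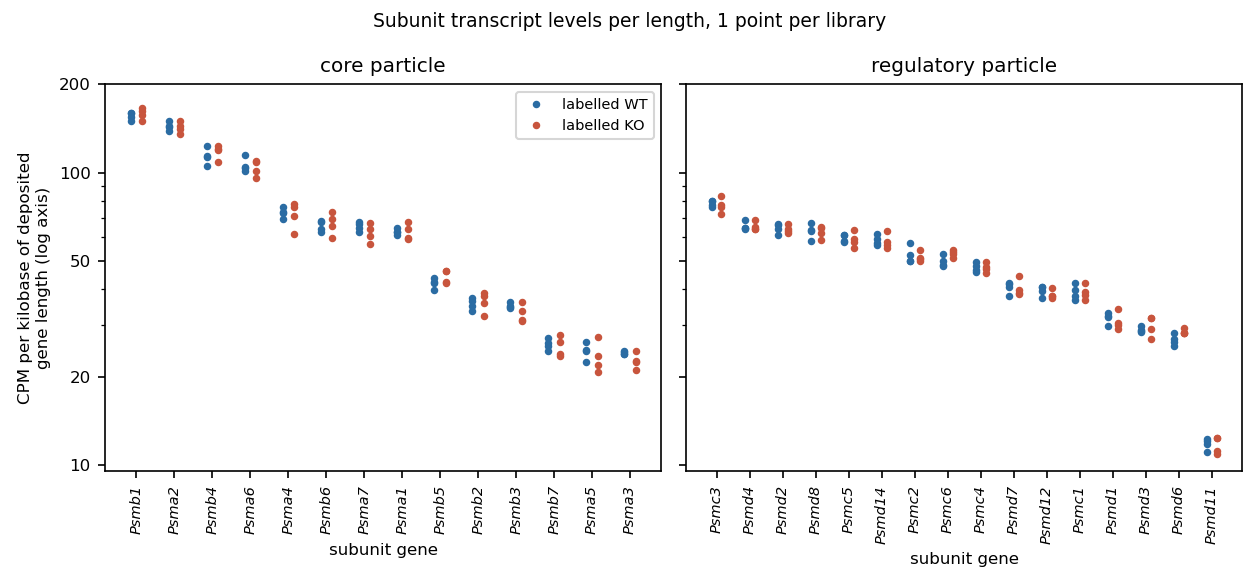
Level of each core particle gene (left) and regulatory particle gene (right) in CPM per kilobase of deposited gene length on a log axis, with 1 point per library, blue for the wild-type and red for the knock-out label. The ranges of the 2 labels overlap for every gene shown except Psmd6, while genes range from 157 to 23.4 in the core particle and from 78.1 to 11.8 in the regulatory particle.

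From library to library the median level of the members differed by little. Each member's log2 CPM was set against its own mean over the 8 libraries, and the median over the 44 members was 0.075 in KO 5, 0.057 in WT 4, 0.012 in WT 1, 0.005 in KO 2, -0.017 in WT 5, -0.021 in KO 1, -0.025 in WT 2 and -0.068 in KO 4. KO 5 was above the mean for 42 members and the highest library for 23. KO 4 was below the mean for 39 members and the lowest library for 18. Such counts were not made over all genes. For all genes the medians lay between -0.001 and 0.005. The normalisation centres most genes in each library, so these medians are no test of whether the members moved together. The core particle had the widest range, from -0.120 in KO 4 to 0.088 in KO 5, or 1115 and 1287 CPM summed.

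KO 4 and KO 5, the extremes, carry the same label, the same code and the highest myeloid marker levels of the 8 libraries. The SD of the summed core level was 74.2 CPM in KO-labelled libraries and 31.2 CPM in WT-labelled libraries, with KO 4 and KO 5 in the first. Without KO 4 the median log2 fold change over the members was 0.010 and without KO 5 it was -0.039, with 0 members called in either fit (10.5% and 8.60% of all genes). Without both, as a comparison within code 7 (added after the data were seen), it was -0.018 and 0 members were called, against 8.01% of all genes. KO 4 had the fewest counts of all libraries. The part of depth or myeloid RNA in the spread between KO 4 and KO 5 was not tested.

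**Figure D4:**
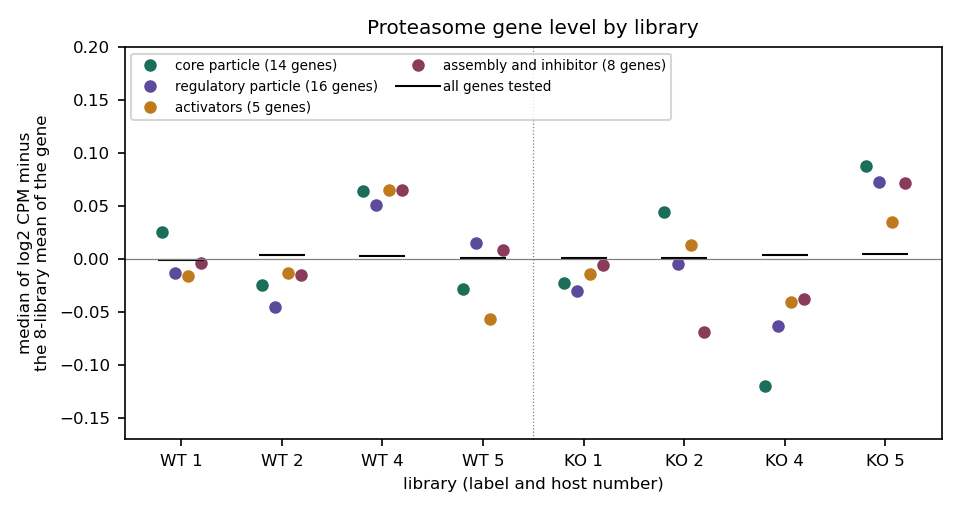
Median over the genes of each place of the log2 CPM minus the gene's 8-library mean (vertical axis) in each library, with black bars for all genes. All 4 places are highest in KO 5 or WT 4, and the core and regulatory particles are lowest in KO 4, with libraries of both labels on either side of 0.

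Genes that work with the proteasome but do not match the symbol pattern gave 1 call, higher in KO-labelled libraries, among 33 measured, where 6.20% of all genes were called higher and 3.84% lower. This list held bound cofactors, assembly factors, the transcription factors with their processing enzymes, ubiquitin shuttles, the Vcp segregase and ubiquitin genes. Its median log2 fold change was 0.02. The call was Nfe2l2, the regulator of the antioxidant response, at 69.1, 74.0, 68.7 and 85.7 CPM in the WT-labelled libraries and at 101, 109, 145 and 128 CPM in the KO-labelled ones. The labels did not overlap, as held for 16.0% of all genes (0.70 ± 0.12, edgeR adjusted p = 0.00401). KO 4 and KO 5, with the highest myeloid marker levels, were highest for Nfe2l2 as well, and without both its log2 fold change was 0.500 (edgeR adjusted p = 0.0138). With the myeloid level as a covariate it was -0.164 ± 0.288 (adjusted p = 0.999). Since the myeloid level does not overlap between the labels, its part and that of the label cannot be told apart.

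Nfe2l1, the factor known to act on the proteasome genes, was at 125, 123, 125 and 125 CPM in the WT-labelled libraries and at 113, 119, 122 and 109 CPM in the KO-labelled ones. These did not overlap, and the difference did not pass the test (-0.11 ± 0.04, edgeR adjusted p = 0.164). Ngly1, an enzyme needed to process the Nfe2l1 protein, was at 84.8, 81.4, 74.5 and 79.9 CPM and at 70.0, 63.5, 73.6 and 71.0 CPM, also without overlap (-0.21 ± 0.06, adjusted p = 0.0541). Ddi2, the protease that cleaves it, was at 91.8 ± 1.41 and 92.8 ± 5.15 CPM (0.02 ± 0.05). Pomp, the maturation factor of the core particle, was at 85.2 ± 3.98 and 82.5 ± 3.31 CPM. The ubiquitin receptor Adrm1 was at 32.3 ± 1.82 and 32.9 ± 0.415 CPM, and Uchl5, the deubiquitinase that binds it, at 31.0 to 32.8 and 34.6 to 40.2 CPM (0.19 ± 0.06, adjusted p = 0.0656). Ubb, which encodes a chain of ubiquitin units, was at 1562 ± 74.8 and 1625 ± 59.4 CPM and was not called. The lack of overlap was not particular to Nfe2l1, Ngly1 and Nfe2l2 among the partners. Uchl5, Rad23b (0.11 ± 0.04) and Nploc4 (0.07 ± 0.03), all higher, and Faf2 (-0.13 ± 0.04), lower, did not overlap either and were not called. Over all genes 16.0% did not overlap.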

How the data were processed

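Poly(A) RNA of transferred CD4 T cells was sequenced in 8 libraries, as single reads of 81 bases from a stranded kit, per the labels' protocols. Reads were aligned with STAR to mm10, per the submitters' processing notes. The sources used here do not give the counter, the annotation or the strand setting. Raw counts by gene were deposited with gene lengths, and 0 columns of values were left unused. Groups and host numbers came from the sample titles.

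Counts were normalised with TMM factors, and filterByExpr kept all 11354 genes. Genes were tested with edgeR (estimateDisp, glmQLFit, glmQLFTest) on the label alone, with Benjamini-Hochberg adjustment over all genes and a call below 0.05. The common biological coefficient of variation was 0.116. Each SE was obtained from the log2 fold change and the F statistic, and 95% intervals use the t distribution of the fit. Log2 CPM had a prior count of 2. The script was tested on simulated data. Positions are from RefSeq (GRCm38), by Entrez identifier, and gene symbols from the deposited table. Members and lists were chosen with earlier results of these data known. Values per library are given for catalytic and activator genes and for the highest and lowest log2 fold change of each group. Psmc6 and the other members named with a mean were added after their values were seen, as were the named partner genes other than Nfe2l2. Alternatives were RLE factors, total library size, no filter, 1 CPM in 4 libraries, DESeq2, limma-voom with quality weights, the host number as a block, the code as a term, the myeloid covariate, and leaving out libraries. Each library of a label carries its own host number, but nothing says whether same-numbered libraries of both labels came from separate mice. The p-values weigh the difference between the labels against the spread between libraries, which may be technical in part. Fits used edgeR 4.0.16 and, as alternatives, DESeq2 1.42.0 and limma 3.58.1 in R 4.3.3. Summaries used pandas 2.3.3 under Python 3.11.15.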

Additional observations from a re-analysis of the deposited data

Results flagged for a closer look

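In 5 of 96 groups of 4 libraries that were checked over the 44 members and the summed levels, 1 library lay far from the others relative to their range. Chance flags about 1 in 20 groups, so this is about the number chance gives. Psmd4 was at 142 CPM in WT 2 and at 133 to 134 CPM in the other WT-labelled libraries. Psmd6 was at 38.0 CPM in KO 4, with 36.6 to 36.7 CPM in the other KO-labelled libraries, so its low spread there (SD 0.644) comes with 1 library apart. Psmd10 was at 23.0 CPM in KO 1 against 22.2 to 22.3 CPM, and Psmg2 at 28.0 CPM in KO 2 against 25.8 to 26.0 CPM. Psmg3 was at 9.66 CPM in KO 5 against 7.14 to 7.39 CPM.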

How the results depend on the processing

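In each of the 19 alternatives, which called from 0.0617% to 13.9% of all genes, 0 members were called higher and 0 lower, and the smallest adjusted p of any member ranged from 0.0595 to 0.999. The calls over all genes, 1140 with all libraries, became 745 with the code as a term and 7 with the myeloid covariate, and ranged from 804 to 1197 over the fits without 1 library (804 without WT 1, 810 without WT 4). The median log2 fold change of the members lay between -0.039 and 0.011 except with the myeloid covariate, where it was 0.056. With that covariate Nfe2l2 turned to -0.164 and Psmb9 was at -0.082, both without a call. Standard errors were wider in that fit (0.136 against 0.035 for Psme3), so the lack of calls there says little. Whether a host number pairs its libraries was not settled: the correlation of deviations between same-numbered libraries was -0.0601, 0.182, -0.138 and 0.256 for hosts 1, 2, 4 and 5. The replicate block left 1020 calls over all genes, 0 members and a member median of -0.012. Intervals were widest for the low genes Psmg1, Psmg3, Psmg4 and Psmc3ip, where a change past 1.25-fold is inside the interval. For Psmc3ip the SE of 0.185 became 0.128 without KO 4.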
